A study of Bos taurus with 6 samples.

Results

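The genes described here switch GTPases on and off, and 35 of them appeared among 2040 genes that the authors had selected as different between Angus and Chinese Simmental cattle. They are the listed genes whose annotation in the deposited table held GTPase activator activity or guanyl-nucleotide exchange factor activity. Of 40 annotated rows, 2 were left out for having no gene symbol and 3 for a kinase or receptor annotation, and 0 for having no reads in a breed. Of the 35 genes, 22 were annotated as exchange factors, 11 as activators and 2, ALS2CL and TIAM2, as both. Most act on small GTPases, but the label does not cover RGS2, which acts on the alpha subunits of heterotrimeric G proteins, ITPR3, a calcium channel, or CCPG1, a scaffold protein.

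Small GTPases, such as RhoA, Rac, Cdc42, Ras and the Arf and Rab families, are molecular switches that are active when bound to GTP. Guanine nucleotide exchange factors (GEFs) load them with GTP, and GTPase-activating proteins (GAPs) speed up hydrolysis and so turn them off. RhoA, Rac and Cdc42 shape the actin cytoskeleton, Ras and Rap control growth signals and adhesion, and Arf and Rab direct membrane traffic. In muscle they take part in fibre growth and glucose uptake, and in leukocytes in migration, engulfment and receptor signalling.

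The samples were longissimus dorsi, the long back muscle, taken at ribs 12 and 13 at 18 months of age, from Angus, a beef breed (3 libraries), and from Chinese Simmental (3 libraries). Whether each library came from its own animal is not stated, so the p-values measure the spread between these libraries, which may be technical. Every listed gene had already passed the authors' selection on these libraries: in the authors' deposited table the smallest absolute log2 fold change was 1.00 and the largest adjusted p was 0.0492. No comparison of breeds below is therefore independent of that selection. Counts over the listed genes summed to between 12010803 and 15699184 in Angus and between 12799174 and 28883725 in Chinese Simmental, and the full depth is unknown here.

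Markers of other cells also differed in these muscle samples. Of 9 B cell markers 8 were listed, all higher in Angus, with summed levels of 182243 to 257915 normalized counts there and 44735 to 71805 in Chinese Simmental. The table held 9 of 11 myeloid markers, each of them higher in Chinese Simmental, with sums of 44306 to 74602 in Angus and 515675 to 987790 in Chinese Simmental. The 4 listed of 6 neutrophil markers summed to 909 to 8420 and to 24665 to 117801. Of 15 muscle fibre markers 3 were listed, NEB, TNNT3 and RYR1, and they did not go one way. NEB and TNNT3 were 3.63-fold and 4.82-fold higher in Angus (log2 fold changes of 1.86, and 1.19 without Angus replicate 1, and of 2.27, and 3.05 without Chinese Simmental replicate 1), and RYR1 was 9.75-fold higher in Chinese Simmental (-3.28, and -2.69 without Chinese Simmental replicate 2). The muscle label can thus be checked only in small part. None of 8 T cell markers was listed, and of 7 adipocyte, 5 endothelial and 6 fibroblast markers CFD, VWF and PDGFRA were listed. No listed marker was at 0 in any library. In bulk tissue, fewer cells of a type and less RNA per cell cannot be told apart.

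Most of the regulators were higher in Chinese Simmental. Of the 35, 28 (80.0%) were higher there and 7 in Angus, namely ARHGAP24, VAV2, RASGRP3, PLEKHG5, ITPR3, BCAR3 and RALGPS2. All 35 passed the edgeR quasi-likelihood test (Benjamini-Hochberg adjusted p from 0.00217 to 0.0291), as did 99.9% of the 1989 tested listed genes, with 24.9% on the Angus side and 75.0% on the Chinese Simmental side. The breeds did not overlap for any of the 35, against 90.3% of listed genes without overlap. The median log2 fold change, Angus minus Chinese Simmental, was -1.42 over the regulators and -1.57 over all tested genes. Folds ran from 2.10 to 12.4, and the largest fold toward Angus was 3.90. The regulators' share of either direction was thus near that of the selected genes as a whole.

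**Figure D1:**
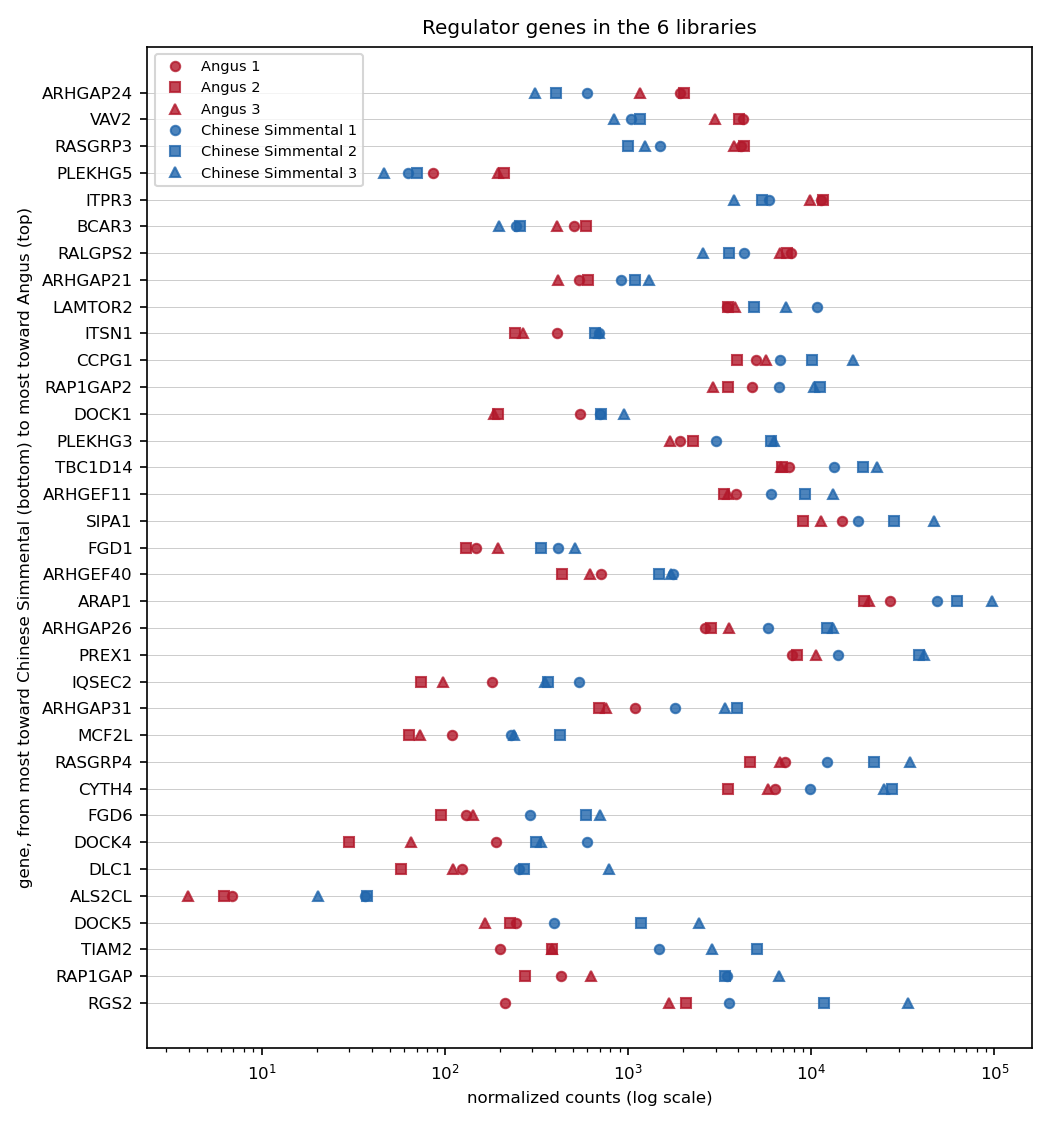
Normalized counts (counts divided by the authors' size factors, log scale) of the 35 regulator genes in the 6 libraries, with Angus in red and Chinese Simmental in blue and symbols for replicates 1 to 3. The red and blue symbols do not overlap for any gene, 7 genes lie further right in Angus and 28 in Chinese Simmental.

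All directions below use the size factors behind the authors' own group means. With factors computed over the selected genes alone (TMM or RLE, which assume that most genes do not differ), the median shift over all tested genes was 1.36 and 1.35 on the log2 scale, toward Angus. The regulators' median then became -0.07 and -0.09, and 9 of the 28 genes changed direction under both: ARHGAP21, ARHGEF11, CCPG1, ITSN1, LAMTOR2, PLEKHG3, RAP1GAP2, SIPA1 and TBC1D14. Of the 28 genes higher in Chinese Simmental, 2, RAP1GAP and TIAM2, were called under these factors. Most listed genes higher in Chinese Simmental lost the call as well: 256 (TMM) and 263 (RLE) were called, against 1492 in the main fit. The 7 genes higher in Angus were called too, but the shift enlarges differences toward Angus, so these calls are no check on them.

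Most activators and most exchange factors were higher in Chinese Simmental, as were 75.0% of all tested genes. Of the 13 genes with an activator annotation 12 were higher in Chinese Simmental and 1, ARHGAP24, in Angus, with a median log2 fold change of -1.78. Of the 24 with an exchange factor annotation 18 were higher in Chinese Simmental and 6 in Angus, with a median of -1.41. The 2 genes annotated as both count in each group, the difference between the groups was not tested, and 4 of the activators (ARHGAP21, RAP1GAP2, SIPA1 and TBC1D14) and 5 of the exchange factors changed direction with factors computed over the table.

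Among the exchange factors of the Dbl type, which act on RhoA, Rac or Cdc42, 9 of 11 were higher in Chinese Simmental, of which ARHGEF11, ITSN1 and PLEKHG3 turned with factors computed over the table, and VAV2 and PLEKHG5 were higher in Angus. These proteins share a catalytic RhoGEF domain, which the authors' annotation gave for all 11. TIAM2, an activator of Rac, stood at 199, 385 and 385 normalized counts in Angus replicates 1 to 3 and at 1482, 5032 and 2887 in Chinese Simmental replicates 1 to 3. Every Chinese Simmental library was thus several times above every Angus library, and the Chinese Simmental libraries were spread widely. The mean was 9.70-fold higher in Chinese Simmental (log2 fold change -3.28 ± 0.55 SE, n = 3 per breed, adjusted p = 0.00331 by the edgeR quasi-likelihood test).

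VAV2, which activates RhoA and Rac below tyrosine kinases, went the other way. It stood at 4219, 4031 and 2967 in Angus and at 1035, 1164 and 834 in Chinese Simmental. The breeds were well apart, with the lowest Angus library above every Chinese Simmental library, and the difference was 3.70-fold (log2 fold change 1.89 ± 0.36 SE, edgeR adjusted p = 0.00387). PLEKHG5, a RhoA exchange factor known from motor neurons, was low, at 85.6, 211 and 196 in Angus and 63.1, 70.6 and 46.6 in Chinese Simmental. Its Angus replicate 1 lay close to the Chinese Simmental libraries. Its fold was 2.73 toward Angus (log2 fold change 1.45 ± 0.55 SE), and it no longer passed when Angus replicate 2 or 3 or Chinese Simmental replicate 2 or 3 was left out, at log2 fold changes of 1.23 to 1.58 (edgeR adjusted p from 0.0516 to 0.105).

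PREX1, a Rac exchange factor activated by phosphoinositides and G protein beta-gamma subunits in neutrophils, stood at 7858, 8332 and 10614 in Angus. In Chinese Simmental it stood at 13985, 38804 and 41245. Replicate 1 of Chinese Simmental lay nearer to the Angus libraries than to the other two, and the mean was 3.51-fold higher in Chinese Simmental (log2 fold change -1.81 ± 0.47 SE). FGD6 and FGD1, Cdc42 exchange factors with a FYVE zinc finger, were 4.31-fold and 2.68-fold higher in Chinese Simmental. ARHGEF40, a RhoA exchange factor, was 2.80-fold higher there at 588 ± 142 against 1647 ± 159 (SD, n = 3 per breed). MCF2L, an exchange factor for RhoA and Cdc42, was 3.63-fold higher. CCPG1, described as a scaffold for the MCF2L protein and as a receptor for endoplasmic reticulum autophagy, was 2.32-fold higher, at 5012, 3916 and 5638 in Angus and 6736, 10089 and 16951 in Chinese Simmental. Both genes of this pair were thus higher in Chinese Simmental with the authors' size factors, as were 75.0% of all tested genes. CCPG1 turned with factors computed over the table. The call for CCPG1 was lost without Angus replicate 1 or 2 or Chinese Simmental replicate 3, at -1.24 to -0.79, and that for FGD1 without Angus replicate 2, at -1.30.

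ARHGEF11, which links G alpha 12/13 subunits to RhoA, PLEKHG3, an actin-binding exchange factor, and ITSN1, a Cdc42 exchange factor and endocytic scaffold, had log2 fold changes of -1.40 ± 0.39, -1.38 ± 0.39 and -1.16 ± 0.41 SE. All 3 turned with factors computed over the table. ITSN1 was the most even gene of the 35 within Chinese Simmental, at 691, 662 and 690, while its Angus libraries stood at 407, 240 and 268. It no longer passed when Angus replicate 2 or 3 was left out, at -1.01 and -1.07. In a RefSeq table of assembly ARS-UCD2.0, the span of PLEKHG3 overlaps that of SPTB, which is also listed and higher in Chinese Simmental. Only the start and end of each gene were compared, not exons or strand, so whether the genes share reads is not known.

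DOCK proteins are exchange factors of another fold, which act with ELMO partners on Rac in migration and engulfment. DOCK1, DOCK4 and DOCK5 were all higher in Chinese Simmental, but none of them passed the test with TMM or RLE factors. The same was true of every regulator higher in Chinese Simmental except RAP1GAP and TIAM2. With TMM and RLE factors the log2 fold changes were -0.0060 and -0.0423 for DOCK1, close to 0, -0.90 and -0.98 for DOCK4, and -1.13 and -1.10 for DOCK5. DOCK5 stood at 246, 227 and 166 in Angus and at 394, 1176 and 2453 in Chinese Simmental, which is 6.29-fold higher (log2 fold change -2.65 ± 0.63 SE, edgeR adjusted p = 0.00668). Its Chinese Simmental libraries spanned several fold, and without replicate 3 of that breed the log2 fold change was -1.88. DOCK4 stood at 190, 30.0 and 65.0 in Angus and at 595, 314 and 334 in Chinese Simmental (4.36-fold). Replicate 1 was the highest library of both breeds, and the log2 fold change of -2.12 became -3.12 without Angus replicate 1. DOCK1 stood at 546, 195 and 186 and at 705, 715 and 945 (2.55-fold), again with Angus replicate 1 nearest to the other breed. The value of -1.35 for DOCK1 became -2.05 without that library. Calls were lost for DOCK4 without Angus replicate 3 (-1.91), and for DOCK1 without Angus replicate 2 or 3 or Chinese Simmental replicate 2 or 3 (-1.41 to -1.09). ELMO2, an ELMO partner without the annotation, was 2.23-fold higher in Chinese Simmental. It did not pass when Angus replicate 2 or 3 was left out, and it turned with factors computed over the table.

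Of 6 GAPs for RhoA, Rac or Cdc42, 5 were higher in Chinese Simmental, of which ARHGAP21 turned with factors computed over the table, and 1 in Angus. ARHGAP24 (FilGAP), a filamin-binding GAP for Rac, stood at 1909, 2028 and 1156 in Angus. In Chinese Simmental it stood at 593, 404 and 309, so that Angus was 3.90-fold higher (log2 fold change 1.96 ± 0.44 SE, edgeR adjusted p = 0.00554). This was the largest difference toward Angus among the 35, and the lowest Angus library lay between the other Angus libraries and the Chinese Simmental libraries. ARAP1, which has both an Arf GAP and a RhoGAP domain, had the highest normalized counts of the 35, at 26801, 19344 and 20732 in Angus and 48770, 62326 and 96681 in Chinese Simmental. Its fold was 3.11 toward Chinese Simmental, with the breeds clearly apart. ARHGAP31 (CdGAP), acting on Cdc42 and Rac, and ARHGAP26 (GRAF), acting on RhoA and Cdc42, were 3.59-fold and 3.45-fold higher in Chinese Simmental.

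DLC1, a RhoA GAP known as a tumour suppressor, was 4.48-fold higher in Chinese Simmental, and its highest library stood well above the rest. It stood at 124, 57.4 and 111 in Angus and at 254, 271 and 786 in Chinese Simmental. Its log2 fold change of -2.16 became -1.43 without Chinese Simmental replicate 3. ARHGAP21, a Golgi-associated GAP for Cdc42, had the smallest difference of these GAPs at -1.09 ± 0.39 SE, and its call was lost without any of the Angus libraries or without Chinese Simmental replicate 3, at -1.21 to -0.95.

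**Figure D2:**
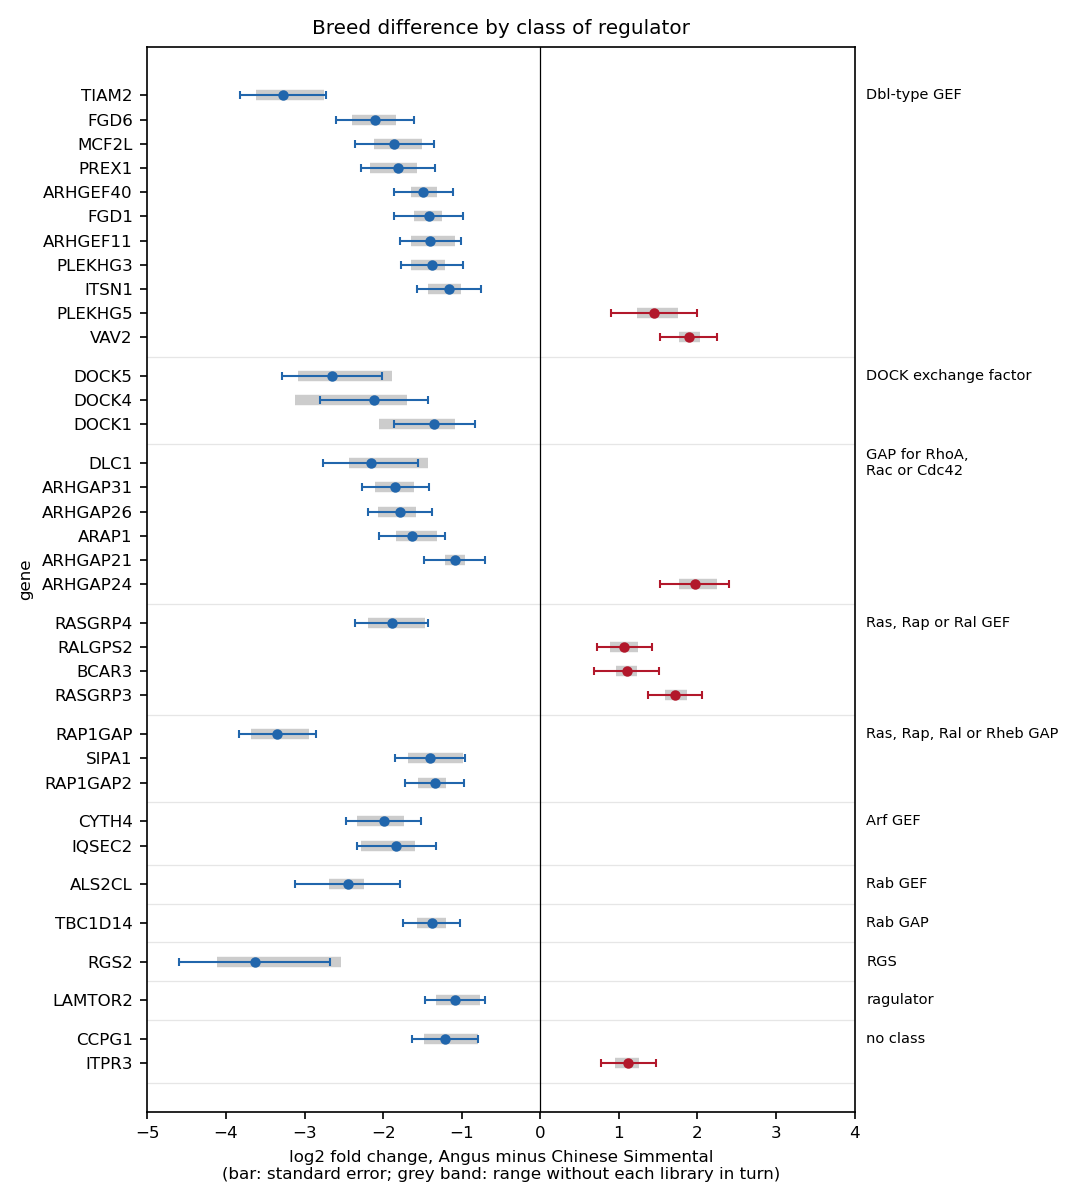
Log2 fold change (Angus minus Chinese Simmental) of each regulator with its standard error, grouped by class, with a grey band for the range when each library is left out in turn. Points are red for the 7 genes higher in Angus and blue for the 28 higher in Chinese Simmental, and the Ras, Rap or Ral GEF class holds 3 of the 7.

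The exchange factors for Ras, Rap and Ral were the only class with more genes higher in Angus (3) than in Chinese Simmental (1). The 3 include BCAR3, an adaptor that is counted here by its annotation. RASGRP3, an exchange factor for Ras and Rap that binds diacylglycerol and is known from B cells, stood at 4124, 4290 and 3795 in Angus. In Chinese Simmental it stood at 1485, 1004 and 1235. The libraries of each breed were close together, and the difference was 3.28-fold (log2 fold change 1.71 ± 0.35 SE, edgeR adjusted p = 0.00443). Its family member RASGRP4, known from mast cells and other myeloid cells, went the other way, at 7188, 4638 and 6712 in Angus and 12168, 21904 and 34774 in Chinese Simmental. This was 3.71-fold higher in Chinese Simmental (-1.89 ± 0.46 SE, edgeR adjusted p = 0.00687), with the breeds apart but the Chinese Simmental libraries widely spread. The B cell markers differed in the direction of RASGRP3 (8 of 8 listed, median log2 fold change 1.96) and the myeloid markers in that of RASGRP4 (9 of 9 listed, median -3.65), and their part in these differences was not tested.

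The other 2 genes of the class higher in Angus differed less. RALGPS2, an exchange factor for Ral, stood at 7778, 7344 and 6753 against 4294, 3557 and 2578 (2.10-fold). BCAR3, an adaptor with an SH2 domain and an exchange-factor-like domain, stood at 507, 587 and 408 against 245, 258 and 197 (2.14-fold). Both were thus near the authors' limit on the fold. The call for RALGPS2 was lost without Angus replicate 2, at 1.06, and that for BCAR3 without Angus replicate 1 or 2 or Chinese Simmental replicate 2 or 3, at 0.97 to 1.18. ITPR3, an inositol trisphosphate receptor that the table annotates as an exchange factor, behaved likewise at 11244, 11567 and 9849 against 5864, 5369 and 3776 (2.18-fold, log2 fold change 1.12 ± 0.35 SE). Its call was lost without Angus replicate 2, at 1.08. Of the 7 genes higher in Angus, 3 (ARHGAP24, VAV2 and RASGRP3) were called whichever library was left out, and of the 28 higher in Chinese Simmental, 20 were. Over all listed genes, single fits without 1 library called 291 to 466 genes higher in Angus, against 495 in the main fit. Toward Chinese Simmental they called 1059 to 1423, against 1492. How many listed genes were called in every such fit was not counted, so neither share is particular to the regulators.

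**Figure D3:**
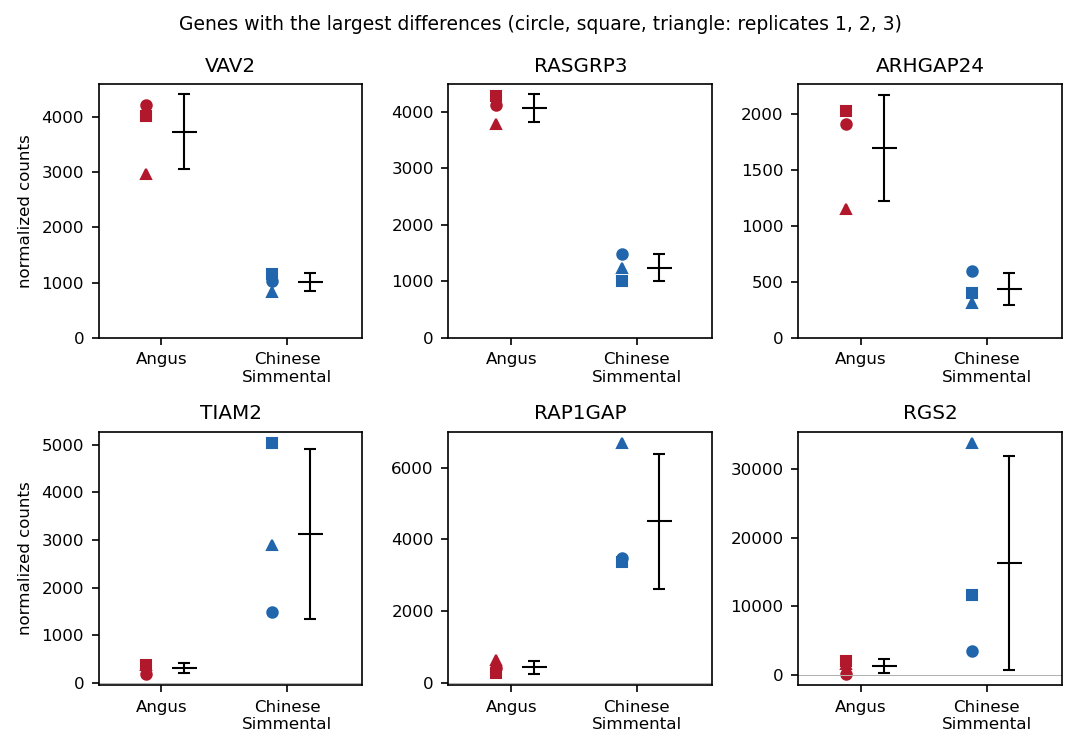
Normalized counts per library, with mean ± SD, of the 3 regulators with the largest log2 fold changes in each direction. VAV2, RASGRP3 and ARHGAP24 are 3.70-fold, 3.28-fold and 3.90-fold higher in Angus, and TIAM2, RAP1GAP and RGS2 are 9.70-fold, 10.2-fold and 12.4-fold higher in Chinese Simmental with a wide spread there.

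GAPs for Rap1, a GTPase of integrin adhesion, were all 3 higher in Chinese Simmental with the authors' size factors, and SIPA1 and RAP1GAP2 turned with factors computed over the table. RAP1GAP stood at 429, 273 and 628 in Angus and at 3482, 3364 and 6676 in Chinese Simmental. All Chinese Simmental libraries were several times above the highest Angus library, and the difference was 10.2-fold (-3.34 ± 0.49 SE, edgeR adjusted p = 0.00217, the smallest of the 35). RAP1GAP2, known from platelets, was 2.54-fold higher at 4718, 3513 and 2905 against 6673, 11222 and 10347. SIPA1, a Rap GAP of lymphoid and other blood cells, was 2.65-fold higher at 14763, 8963 and 11338 against 17991, 28117 and 46707. The gap between the nearest SIPA1 libraries of the breeds was small beside its spread within Chinese Simmental. The call for SIPA1 was lost without Angus replicate 2 or 3 or Chinese Simmental replicate 3, at -1.38 to -0.98.

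Arf exchange factors and Rab regulators were also higher in Chinese Simmental, except that TBC1D14 turned with factors computed over the table. CYTH4, a cytohesin found mainly in leukocytes, stood at 6324, 3493 and 5828 in Angus and 9784, 27639 and 24899 in Chinese Simmental (3.98-fold, log2 fold change -1.99 ± 0.48 SE). IQSEC2, an Arf6 exchange factor known from synapses, stood at 180, 73.7 and 97.5 and at 536, 364 and 351 (3.57-fold). Replicate 1 was the lowest Chinese Simmental library for CYTH4 and the highest for IQSEC2. TBC1D14, a Rab GAP-domain protein of autophagy, was 2.60-fold higher at 7090 ± 418 against 18463 ± 4801. ALS2CL, counted here with the Rab exchange factors, had the lowest levels of the 35, at 6.85, 6.24 and 3.94 normalized counts against 36.8, 37.6 and 20.4 (5.57-fold). In FPKM it was not called, at adjusted p = 0.563 and 0.259 by limma with pseudocounts of 1 and 0.1, both above its highest FPKM of 0.075. Its FPKM is listed at 0 in replicate 3 of both breeds, although counts are given there.

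RGS2, which shortens Gq signalling, had the largest fold of the 35 and the widest spread within Chinese Simmental. It stood at 212, 2061 and 1671 in Angus and at 3538, 11683 and 33780 in Chinese Simmental. Angus replicate 1 was far below the other Angus libraries, and Chinese Simmental replicate 3 was far above the others of its breed. The mean was 12.4-fold higher in Chinese Simmental (log2 fold change -3.64 ± 0.96 SE, edgeR adjusted p = 0.00923), and without Chinese Simmental replicate 3 the log2 fold change was -2.53. LAMTOR2, a subunit of the Ragulator complex that serves Rag GTPases on lysosomes, was 2.13-fold higher at 3449, 3489 and 3824 against 10707, 4875 and 7311. It turned with factors computed over the table, and its call was lost without any 1 of the Angus libraries, at -1.14 to -1.06.

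Within breeds, many regulators had their lowest and highest values in the same libraries. Of the 28 genes higher in Chinese Simmental, 20 (71.4%) were lowest of their breed in Chinese Simmental replicate 1 and 17 (60.7%) highest in replicate 3. Over the 1492 tested genes higher in Chinese Simmental these shares were 62.5% and 65.3%. In Angus, replicate 2 was the lowest library for 16 of the 28, against 55.2% of all such genes. Angus replicate 1 was the highest Angus library for 17 of the 28 (60.7%), against 43.5%, and replicate 3 for 8 (28.6%), against 44.9%. Of the 7 genes higher in Angus, 6 were lowest of the Angus libraries in replicate 3, against 51.9% of all tested genes higher in Angus. Likewise 6 of the 7 were lowest of the Chinese Simmental libraries in replicate 3, against 45.7%. The summed neutrophil markers were also lowest in replicate 1 of Chinese Simmental, at 24665 against 102957 and 117801, while the myeloid sum was 523557, 515675 and 987790 and the B cell sum was 71805, 58460 and 44735 in replicates 1 to 3. The part of these cells in this order was not tested.

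A smaller group did not follow this order. ARHGEF40, DOCK4, IQSEC2, ITSN1 and LAMTOR2 were highest of their breed in Chinese Simmental replicate 1, and the first 4 were also highest in Angus replicate 1. These 4 are 14.3% of the 28, and 164 of the 1492 tested genes higher in Chinese Simmental did the same. The median coefficient of variation over the regulators was 21.9% in Angus and 35.7% in Chinese Simmental, against 29.6% and 39.0% over all tested genes. It was larger in Chinese Simmental for 22 of the 28 genes higher there and for 4 of the 7 genes higher in Angus.

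**Figure D4:**
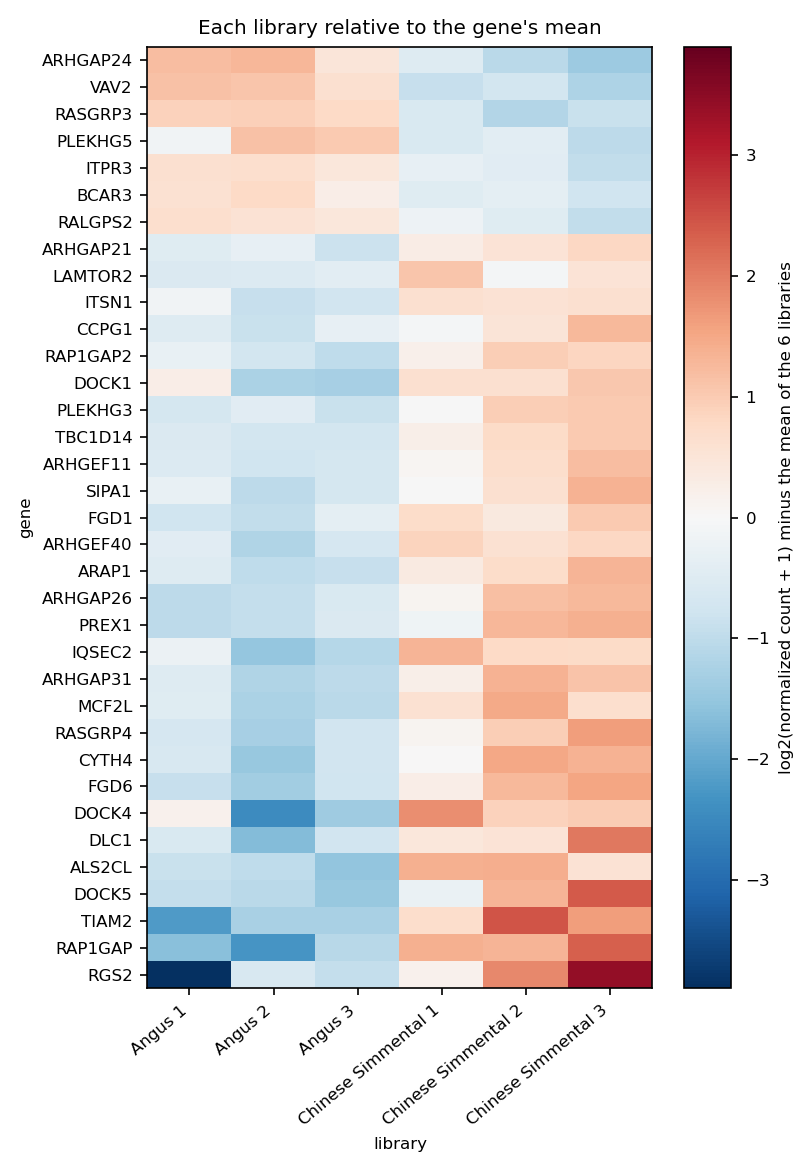
Log2(normalized count + 1) of each regulator in each library minus the mean over the 6 libraries, with red above and blue below that mean. Chinese Simmental replicate 1 is the lowest library of its breed for 20 of the 28 genes higher there, while ARHGEF40, DOCK4, IQSEC2, ITSN1 and LAMTOR2 are highest in it.

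In FPKM, which divides by transcript length, the direction was the same for all 35 genes, and the breeds overlapped for 1, ALS2CL. Mean FPKM ran from 0.0056 for ALS2CL to 252 for ARHGAP24 in Angus and from 0.037 for ALS2CL to 329 for TBC1D14 in Chinese Simmental, with medians of 15.6 and 39.3. The highest means over the 6 libraries were in TBC1D14 (230), RGS2 (170), ARHGAP24 (159), SIPA1 (117) and RASGRP4 (91.9). Most neighbours in the order of levels were not separated: ranked within a breed, 30 of 34 neighbouring pairs in Angus and 29 of 34 in Chinese Simmental had overlapping libraries. Ranked over the 6 libraries, BCAR3 and PLEKHG5, and PLEKHG5 and ALS2CL, were the 2 neighbouring pairs without overlap. The order between genes is also uncertain for another reason. The number of counts per unit of FPKM varied 124-fold over the 35, from 6.46 for FGD6 and 7.03 for ARHGAP24 to 663 for RAP1GAP2 and 803 for ALS2CL, and which transcript lengths the authors used is not given in the sources used here. For TIAM2 this ratio also changed between libraries (SD 1.17 on the log2 scale), with FPKM of 0.143, 1.35 and 1.35 in Angus.

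The regulators shared further annotations, which are not fully independent of the annotation that chose them, since both come from the authors' table. Signal transduction was the orthology (KOG) class of 26 of the 35 (74.3%), against 14.8% of listed genes. A PH domain, which binds phosphoinositides in membranes, was annotated in 14 of the 35 and in 46 (2.25%) of all listed genes, 11 of these higher in Chinese Simmental and 3 (ARHGAP24, RALGPS2 and VAV2) in Angus. A PDZ domain was annotated in 16 listed genes, among them ARHGAP21, ARHGEF11, PREX1 and SIPA1. All 4 were higher in Chinese Simmental, as were 75.0% of all tested genes. ARHGAP21, ARHGEF11 and SIPA1 turned with factors computed over the table. The 2 regulators with an SH2 domain, which binds phosphotyrosine, were VAV2 and BCAR3, both higher in Angus. In all, 26 listed genes had this domain. The directions of the other genes with a PDZ or SH2 domain were not counted. Of the 5 genes with a RasGEF domain in the whole table, 4 belonged to the 35.

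Other genes of the same families were listed without the annotation. Of 451 family genes looked for, 18 further ones were listed, 16 called higher in Chinese Simmental and 2 in Angus, ARHGAP5 and SESN1, against 75.0% and 24.9% of all tested genes. With factors computed over the table, 7 of the 16 turned and 2 of the 16 passed. Over all listed genes, 256 (TMM) and 263 (RLE) passed toward Chinese Simmental, against 1492 in the main fit. ARAP3, a GAP like ARAP1, was 8.67-fold higher in Chinese Simmental, and RAB3IP, a Rab8 exchange factor, 7.75-fold. ARHGAP5, a RhoA GAP, was 2.62-fold higher in Angus, which no longer passed when Angus replicate 1 or Chinese Simmental replicate 2 was left out (leave-one-out log2 fold changes of 1.06 to 1.59). SESN1, a regulator of Rag signalling, was 2.25-fold higher in Angus and did not pass without Angus replicate 2 or 3. These 4 genes were chosen after their values were seen. Among the rows left out for a kinase or receptor annotation, AKAP13, a RhoA exchange factor and kinase anchor, was 2.64-fold higher in Chinese Simmental, and RAPGEF3, a cAMP-activated Rap exchange factor, 2.35-fold higher in Angus. In FPKM the breeds nearly met for AKAP13, at 306, 246 and 260 in Angus and 418, 395 and 309 in Chinese Simmental. For RAPGEF3 they overlapped in FPKM, at 1.46, 3.88 and 2.57 in Angus and 1.76, 0.95 and 0.95 in Chinese Simmental. Neither passed in every fit with 1 library left out: AKAP13 failed without any 1 of the Angus libraries or Chinese Simmental replicate 2, and RAPGEF3 without replicate 2 or 3 of either breed (log2 fold changes over all such fits of -1.70 to -1.12 for AKAP13 and of 0.84 or more for RAPGEF3). THY1, left out likewise, was higher in Chinese Simmental. The 2 rows without a symbol, both annotated as DOCK11-like, were 6.70-fold and 4.24-fold higher in Chinese Simmental. Without Chinese Simmental replicate 3 the first had a log2 fold change of -2.02 (from -2.74), and without replicate 2 the second had -1.27 (from -2.08).

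The switches themselves were listed in both directions. Of 149 small GTPases 20 were listed and 19 tested, 13 called higher in Chinese Simmental and 6 in Angus, against 75.0% and 24.9% of all tested genes. With factors computed over the table, 5 of the 13 (RHOB, RHOG, RALB, ARF3 and RAB32) turned and 3 of the 13 passed. Over all listed genes, 256 (TMM) and 263 (RLE) passed toward Chinese Simmental, against 1492 in the main fit. All 6 on the Angus side passed, the side toward which these factors shift the values. The median log2 fold change was -1.37. RAB20, a Rab of phagosomes, stood at 209, 154 and 513 in Angus and at 2352, 6458 and 7882 in Chinese Simmental (19.1-fold, log2 fold change -4.25, and -4.94 without Angus replicate 3). RAB3D, of secretory granules, was 14.4-fold and RASD2, a Ras-like protein, 10.7-fold higher in Chinese Simmental. For all 3 the breeds did not overlap, as for 90.3% of listed genes. Toward Angus, and chosen after their values were seen, DIRAS2 was 4.79-fold (log2 fold change 2.26, and 2.94 without Chinese Simmental replicate 1), RAB39A 4.26-fold and RAB30 4.13-fold higher, also without overlap.

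Of 91 effectors 12 were listed and called, all higher in Chinese Simmental, as were 75.0% of all tested genes. The breeds did not overlap for 8 of the 12, against 90.3% of listed genes without overlap. With factors computed over the table, all 12 lost the call in edgeR, and 4 turned, FMNL1, SYTL2 and SYTL3 among them. Most listed genes higher in Chinese Simmental lost it too, with 256 (TMM) and 263 (RLE) called against 1492 in the main fit. The Cdc42 effector CDC42EP3 was 3.75-fold and the Rab7 effector RILP 3.29-fold higher. Of 9 genes for dissociation inhibitors and escort proteins, 1 was listed, the Rab escort protein gene CHML, 2.08-fold higher in Angus. Its call was lost without any library but Chinese Simmental replicate 1 (leave-one-out log2 fold changes of 0.78 to 1.35).

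**Figure D5:**
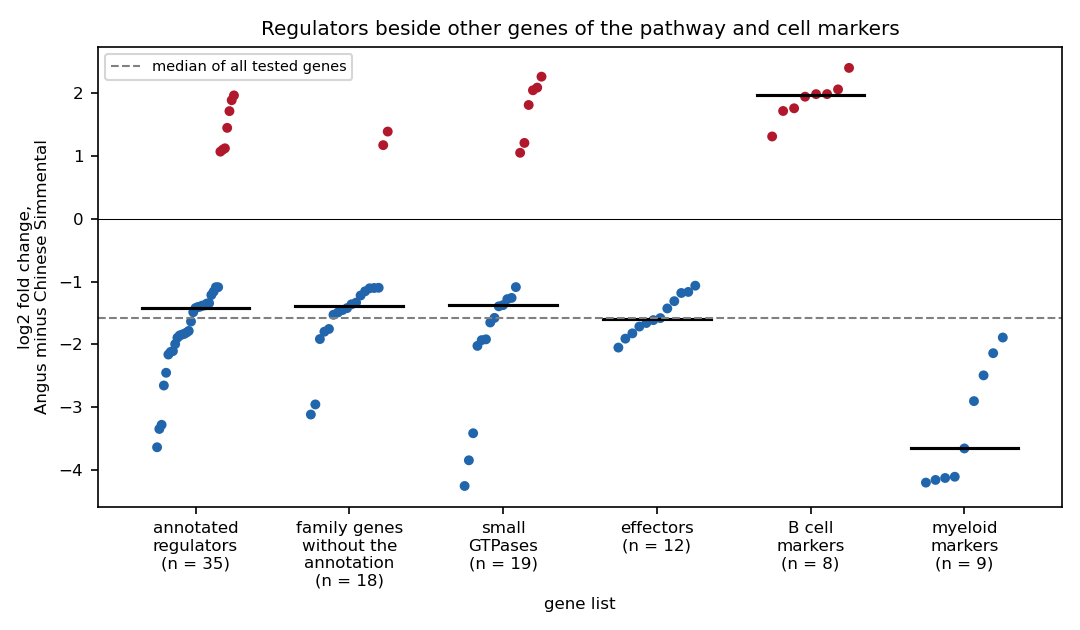
Log2 fold changes (Angus minus Chinese Simmental) of the 35 regulators, of 18 family genes without the annotation, 19 small GTPases, 12 effectors, 8 B cell markers and 9 myeloid markers, 1 point per gene, with a bar at each median. The medians of the first 4 lists lie close to the dashed median of all tested genes at -1.57, the B cell markers lie above 0 and the myeloid markers below the other lists' medians.

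Regulators known mainly from leukocytes were 5 of the 35: RASGRP3, higher in Angus, and CYTH4, PREX1, RASGRP4 and SIPA1, higher in Chinese Simmental, of which SIPA1 turned with factors computed over the table. Their median log2 fold change was -1.81, against -1.42 over all 35. Summed with GMIP, the sixth listed gene of a list of 36, they stood at 48297 to 57908 in Angus. In Chinese Simmental the sum was 80019 in replicate 1, 169820 in replicate 2 and 218922 in replicate 3. The lowest of these was again replicate 1. Between breeds, the myeloid and neutrophil marker sums differed in the direction of the 4 genes higher in Chinese Simmental and the B cell sum in that of RASGRP3, and their part in the differences was not tested.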

How the data were processed

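Messenger RNA libraries of longissimus dorsi were compared between breeds, grouped by the titles. The submitters' processing notes name HISAT2 as a tool and ARS-UCD1.2 as the genome build. How reads were counted, and whether by strand, is not stated there or in the labels. Per the file headers, the authors deposited whole-number counts and FPKM for every library, mean scaled counts for either breed (a normalized signal), their log2 fold change, and their p-value and adjusted p. Of its rows, 2040 named a gene and 1 was blank and left out, and 0 per-sample columns were left unused. Only genes selected by the authors were in it.

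Size factors were solved from the authors' deposited group means (largest relative residual 1.53e-09) and ran from 0.801 to 1.17. Normalized counts are counts divided by them. They were used because factors computed over selected genes would centre the fold changes. Counts of all rows were tested in edgeR 4.0.16 (R 4.3.3) with glmQLFit and glmQLFTest, filterByExpr at a minimum count of 10, breed as the only term and Benjamini-Hochberg adjusted p under 0.05. The fit was tested on simulated data in which most genes did not differ and changes were balanced between directions. The listed genes are unlike that, so the simulation is no check on the calls here. Groups of 3 against 3 were not tested by permutation. Alternatives were TMM and RLE factors, no count filter, DESeq2 1.42.0, limma 3.58.1 on log2 FPKM, a replicate block and leaving out each library.

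Replicate numbers in the titles were checked for pairing: deviations of same-numbered libraries from their breed means correlated at 0.274, 0.157 and 0.255, and differently numbered ones at -0.361 to 0.223. The 0.223, of Angus replicate 3 with Chinese Simmental replicate 2, is above the 0.157, so pairing remains uncertain. Same-numbered libraries were taken as paired in the replicate block only, and the main fit is unpaired. The members and gene lists were chosen with earlier results of these data known. Up to 4 genes per class by p, the 6 largest differences in each direction, the 5 highest FPKM and up to 3 per pathway list were named first (some genes are not reported here by name), which took 28 of the 35, and the other 7 were added so that each gene is given. All 35 symbols matched RefSeq (ARS-UCD2.0), where 16 of the genes overlap another gene, and none shared its counts with another name. No sequence or coordinate is printed. Of the 35, 28 had at least 100 counts in every library, and the smallest count was 4, in ALS2CL.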

Additional observations from a re-analysis of the deposited data

How the results depend on the processing

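The number of regulators past the threshold (35) and their median log2 fold change (-1.42) changed most with the scaling. With TMM or RLE factors computed over the selected genes, 9 and 9 regulators were called (7 higher in Angus and 2 in Chinese Simmental each), the medians were -0.0709 and -0.0908, and 759 and 766 listed genes were called in place of 1987 (503 and 256, 503 and 263 by direction). Log2 fold changes that turned were, with TMM and RLE, 0.28 and 0.29 for ARHGAP21, 0.0160 and 0.0199 for ARHGEF11, 0.22 and 0.22 for CCPG1, 0.15 and 0.13 for ITSN1, 0.19 and 0.16 for LAMTOR2, 0.0260 and 0.0488 for PLEKHG3, 0.0217 and 0.0227 for RAP1GAP2, 0.0268 and 0.0205 for SIPA1, and 0.0044 and 0.0072 for TBC1D14. These factors centre the listed genes by construction. With the replicate block 35 regulators were called, as in the unpaired fit, and the median was -1.51. It changed no call among the regulators, and the count over all listed genes was 1937. Without a count filter and with DESeq2 all 35 were called, and with limma on log2 FPKM 34, ALS2CL being the exception. Leaving out 1 library gave 24 to 35 called regulators, medians of -1.65 to -1.27 and 1350 to 1889 listed genes, with 12 regulators losing the call at least once and none turning. The lowest counts, 24 regulators and 1350 listed genes, came without Angus replicate 2. Using shared counts once or keeping genes without reads changed nothing, since neither applied to these genes. Depth beyond the listed genes is unknown, and ALS2CL rests on few reads.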
